A study of Mus musculus with 11 samples.

Results

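Heat shock proteins and their co-chaperones were followed here across 2 mouse cell lines and the stomach muscle those lines came from. The set holds every gene whose single symbol in the array's annotation names an HSP70, HSP90, HSP60, HSP10, HSP110 or small heat shock protein, a J-domain protein (Dnaja, Dnajb, Dnajc) or a BAG protein. It has 76 genes of the 18193 genes with a probe set of 1 symbol: 13 Hspa, 2 Hsp90, 8 Hspb, 1 each of Hspd, Hspe and Hsph, 4 Dnaja, 13 Dnajb, 27 Dnajc and 6 Bag genes. Their level was read from 178 probe sets, by the brightest 1 of each gene, and 29 genes had only 1 probe set. Hsp90ab1 and Dnajc19 had no probe set of their own and were not analysed here.

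The study profiled clonal progenitor lines of interstitial cells of Cajal (ICC), pacemaker cells of the gut wall, on Affymetrix whole-genome mouse arrays. The tsA58 line (2xSCS70, 3 arrays) came from the stomach muscle of H-2Kb-tsA58 mice, whose SV40 large T antigen is thermolabile and lies behind the interferon-inducible H-2Kb promoter, and it was grown in neural stem cell medium at 39.5 °C with no interferon-gamma. The C57BL/6J line (2xSCS2F10, 3 arrays) came from C57BL/6J mice and was grown in that medium with 5% chick embryo extract at 37 °C. The tsA58 tissue (3 arrays) and the C57BL/6J tissue (2 arrays) were the gastric tunica muscularis, the muscular wall of the stomach, of the same strains. Each line is 1 clone, so temperature, strain, transgene, extract and clone differ together between the lines and cannot be told apart.

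HSP70 proteins hold unfolded stretches of other proteins. J-domain proteins bring them their clients and make them spend ATP, while HSP110 and several BAG proteins make them let go of ADP. HSP90 matures signalling proteins with a set of co-chaperones, HSP60 and HSP10 form a folding chamber in mitochondria, and small heat shock proteins bind unfolded proteins without ATP and are abundant in muscle. On heat, heat shock factors bind repeats of the letters GAA and its complement in the promoters of many of these genes. Unfolded proteins in the endoplasmic reticulum act on other genes through ER stress response elements.

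Promoter stretches of members whose levels are described below are shown first, since these letters are what heat and ER stress factors read. All are RefSeq sequences of GRCm38.p6, 5′ to 3′ on the strand of the gene, from a window of 250 bases before to 50 bases after a start site. An entry was found for 62 of the 76 members. Capitals mark GAA NN TTC NN GAA, read without the spaces, or its reverse complement (3 heat shock units) in the first 4 sequences, and GAANNTTC, its own reverse complement (2 units), in the next 5.
Hsph1, chr5:149636268-149636320, minus strand: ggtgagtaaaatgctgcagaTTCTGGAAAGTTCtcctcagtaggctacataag
Hspd1, chr1:55088039-55088091, minus strand: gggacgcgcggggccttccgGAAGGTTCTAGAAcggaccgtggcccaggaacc
Hspe1, chr1:55088044-55088096, plus strand: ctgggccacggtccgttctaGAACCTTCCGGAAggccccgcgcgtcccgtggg
Dnajb6, chr5:29735832-29735884, plus strand: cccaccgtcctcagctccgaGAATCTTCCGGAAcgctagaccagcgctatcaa
Hspb1, chr5:135887782-135887829, plus strand: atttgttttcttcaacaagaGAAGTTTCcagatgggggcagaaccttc
Hspb1, chr5:135887802-135887849, plus strand: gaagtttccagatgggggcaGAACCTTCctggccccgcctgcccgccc
Hspb8, chr5:116422835-116422882, minus strand: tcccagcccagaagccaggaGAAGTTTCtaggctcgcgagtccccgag
Hspa1a, chr17:34972233-34972280, minus strand: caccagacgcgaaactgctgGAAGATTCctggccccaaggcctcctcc
Hspa1b, chr17:34959315-34959362, minus strand: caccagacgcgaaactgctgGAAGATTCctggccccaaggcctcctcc

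The 3-unit motif was found in 4 of the 62 members (6.45%), all shown, against 0.662% of the 27025 genes with an entry. The 2-unit motif, which lies inside the 3-unit one, was found in 15 of 62 members (24.2%) against 9.04% of genes. Hspd1 and Hspe1, which encode mitochondrial HSP60 and HSP10, are read in opposite directions from the same interval, so their element is shared. The windows of Hspa1a and Hspa1b are identical at 296 of 300 positions. A match describes letters and is not evidence of binding.

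For the ER, capitals mark CCAAT, 9 free bases and CCACG (ER stress response element) in the first 3 sequences and ATTGG, 1 free base and CCACG (element II) in the last, searched on both strands.
Hspa5, chr2:34772005-34772063, plus strand: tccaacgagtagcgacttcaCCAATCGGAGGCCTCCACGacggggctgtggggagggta
Hsp90b1, chr10:86705618-86705676, minus strand: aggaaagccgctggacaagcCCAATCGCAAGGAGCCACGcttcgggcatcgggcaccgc
Dnajc3, chr14:118937807-118937865, plus strand: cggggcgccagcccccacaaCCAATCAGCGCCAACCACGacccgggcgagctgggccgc
Dnajb11, chr16:22857832-22857882, plus strand: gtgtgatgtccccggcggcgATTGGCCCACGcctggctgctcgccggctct

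The ER stress response element was found in 3 of 62 members (4.84%) against 0.137% of all genes, and element II in 1 of 62 (1.61%) against 0.0444%. These 4 genes encode ER proteins: the HSP70 Hspa5 (BiP), the HSP90 Hsp90b1 (Grp94) and the J-domain proteins Dnajc3 and Dnajb11.

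Levels are log2 intensities as deposited, and differences are log2 fold changes given with standard errors (SE). Array medians lay between 4.66 and 4.84. Levels near or below them are called background here, and a change measured down to them is understated. Replicate arrays correlated at 0.956 to 0.991 within groups. Replicate 3 of the tsA58 line stood apart, with a 3′ to 5′ actin control ratio of 0.05 on the log2 scale against 0.51 and 0.85 in replicates 1 and 2. The ratio was 0.99 to 1.04 in the C57BL/6J line, 0.84 to 1.02 in C57BL/6J tissue and 0.41 to 0.47 in tsA58 tissue. Apart from tsA58 line replicate 2, all tsA58 arrays lay below all C57BL/6J arrays, so the ratio also differed between the strains. The titles call the replicates biological, but nothing says that they came from separate cultures or animals, so p-values may measure technical spread. The ICC marker Kit averaged 3.51 ± 0.32 in the tsA58 line, 3.60 ± 0.26 in the C57BL/6J line, 7.87 ± 0.66 in tsA58 tissue and 7.15 ± 0.45 in C57BL/6J tissue (SD, n = 3, 3, 3 and 2). The lines were thus not above background for Kit, the defining marker of mature ICC. Another ICC marker, Ano1, was above background in the lines though lower than in tissue. It averaged 7.15 ± 0.78, 6.26 ± 0.28, 9.83 ± 0.24 and 9.91 ± 0.03 in the same order. The smooth muscle myosin Myh11 was near background in both lines and at 12.94 ± 0.36 in tsA58 tissue and 12.18 ± 0.05 in C57BL/6J tissue. In such bulk samples fewer cells of a type and less RNA per cell cannot be told apart.

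Differences were tested with limma over 13285 genes, and a gene was called when its Benjamini-Hochberg adjusted p stayed below 0.05 and it differed at least 2-fold. Of the 76 members 68 passed the filter on low values. The 8 others, Hspa1l, Hspb3, Hspb9, Dnajb3, Dnajb7, Dnajb13, Dnajc5b and Dnajc5g, lay between 2.55 and 4.84 on every array. The tsA58 line had 10 members higher and 15 lower than tsA58 tissue (36.8% of 68, against 31.7% of all genes, of which 12.8% were higher and 18.9% lower), with a median change of -0.09 against -0.00 over all genes. The C57BL/6J line had 12 higher and 9 lower than C57BL/6J tissue (30.9% against 34.1% of all genes, 17.5% higher and 16.6% lower), with a median of 0.00 against 0.12. The lines themselves differed in 7 members, 4 higher and 3 lower in the tsA58 line (10.3% against 14.2% of all genes, 8.38% higher and 5.77% lower), with a median of 0.04 against -0.04. Between the tissues 14 members were higher in tsA58 tissue and 0 lower (20.6% against 12.8%; 9.56% of all genes were called higher and 3.21% lower), with a median of 0.35 against 0.18. At an unadjusted p below 0.05, 2 members were lower there. The difference between the 2 line-tissue differences was called for 16 members, 3 higher and 13 lower (23.5% against 20.3%), with a median of -0.28 against -0.18. In all, 39 members were called in at least 1 comparison and 29 in none, whose changes lay between -0.96 (Dnajc27, tsA58 line against tissue) and 1.44 (Dnajc1, difference of differences, adjusted p = 0.0502). The share of all genes called in at least 1 comparison was not counted. The 5 comparisons share arrays, apart from 2 pairs with none in common: the 2 line-tissue comparisons, and the lines and the tissues.

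The balance of higher and lower members depended on how arrays were set level. Centred on the hybridisation controls, spiked in at hybridisation, 44 members were higher and 1 lower between the lines, 24 higher and 2 lower in the C57BL/6J line against tissue, 10 higher and 9 lower in the tsA58 line against tissue, 66 higher and 0 lower between the tissues, and 0 higher and 4 lower in the difference. For the C57BL/6J line against tissue cyclic loess gave 7 higher and 14 lower (12.1% and 20.3% of all genes). For the difference it gave 6 higher and 11 lower (9.19% and 10.3%), where quantile normalization gave 5 and 10 (8.66% and 11.2%). Every fold change here is therefore relative to the bulk of transcripts on an array. With either C57BL/6J tissue array left out, 5 members were called between the tissues and 7 in the difference. The share of all genes called in these 2 comparisons fell as well without either of those arrays. Without C57BL/6J line replicates 1 or 2 the difference called 8 or 10 members, and 14.8% or 16.9% of all genes.

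**Figure D1:**
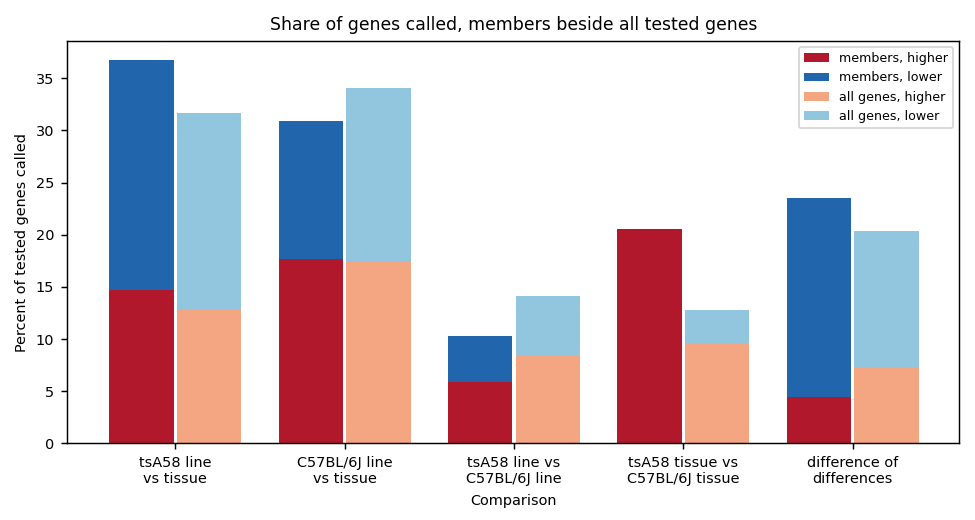
Percent of tested genes called in each of the 5 comparisons (y axis, percent), for the 68 tested members (dark bars) beside all 13285 tested genes (pale bars), with the higher share at the bottom of each bar and the lower share above it. The widest gap between members and all genes was between the tissues, where 20.6% of members and 12.8% of genes were called. Its size depended on the processing. With quantile normalization 10 of 68 members and 11.4% of genes were called there. With the mean of a gene's probe sets it was 16 of 67 members and 10.6% of genes.

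Both lines had 5 members higher than their tissue: Hspa4, Hspa5, Hspa9, Hspd1 and Dnaja3. In both, 6 were lower: Hspa1a, Hspb6, Hspb7, Dnajc6, Dnajc12 and Dnajc15. Hspb1 and Dnajc9 were called in opposite directions in the 2 strains, and 35 members were called in neither. How many of all genes showed each of these patterns was not counted. Of all genes tested, 31.7% were called in the tsA58 line against tissue and 34.1% in the C57BL/6J line against tissue. Across the 68 members the changes of the 2 strains correlated with r = 0.589, against 0.685 across all genes tested, which is given as a description because genes are not independent and a line's own spread is shared by all its genes.

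**Figure D2:**
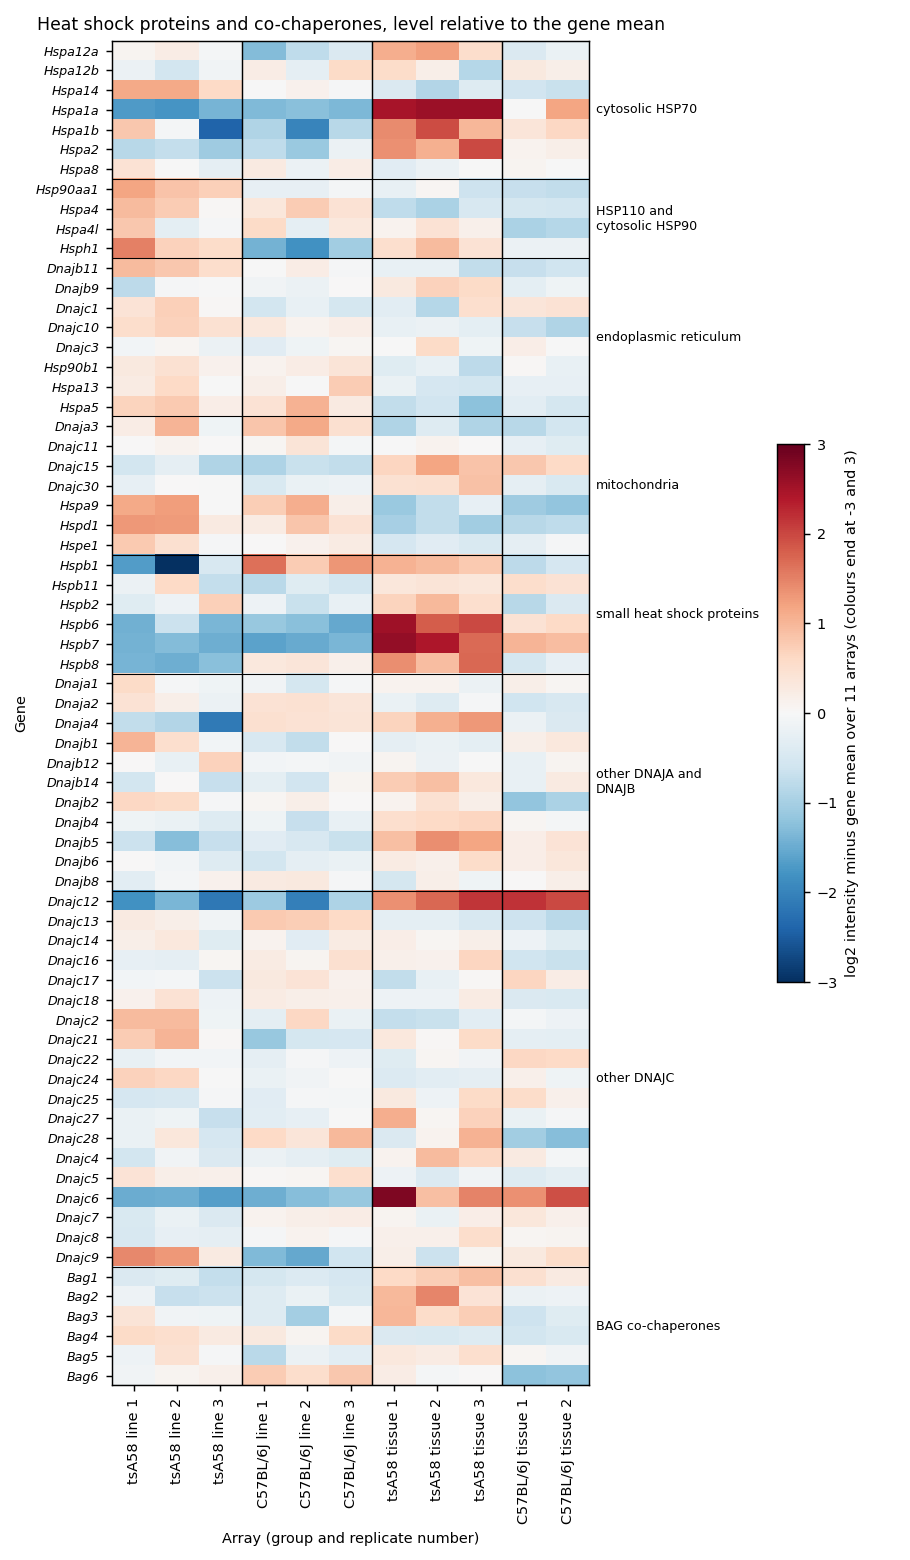
Heat map of the 68 tested members (rows, grouped by role) on the 11 arrays (columns), coloured by log2 intensity minus the mean of the gene over all arrays, from -3 (blue) to 3 (red). The mitochondrial and ER chaperones Hspd1, Hspa9 and Hspa5 were red in both lines, while Hspa1a, Hspb6, Hspb7, Dnajc6 and Dnajc12 were red in tissue.

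Of the cytosolic HSP70 genes, the inducible Hspa1a stood far lower in both lines than in tissue, while the constitutive Hspa8 was near the top of the scale in every group. Hspa1a read 3.35, 3.29 and 3.67 on the 3 arrays of the tsA58 line, against 3.72, 3.81 and 3.71 in the C57BL/6J line, 7.53, 7.62 and 7.62 in tsA58 tissue and 5.03 and 6.22 in C57BL/6J tissue. Both lines were thus at background, also the line grown at 39.5 °C, and both tissues were above it, with tsA58 tissue the higher. It changed by -4.15 ± 0.26 in the tsA58 line against its tissue (adjusted p = 6.37e-07), by -1.88 ± 0.29 in the C57BL/6J line against its tissue (adjusted p = 0.000452) and by 1.96 ± 0.29 in tsA58 against C57BL/6J tissue (adjusted p = 0.00212). The difference of the line-tissue differences was -2.27 ± 0.39 (adjusted p = 0.00358), but with both lines at background it mostly repeats the difference between the tissues. The arrays of C57BL/6J tissue lay apart: without replicate 1 the last 3 values became -2.48, 1.36 and -1.68, and without replicate 2 they became -1.28, 2.56 and -2.87, all still called.

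The probe set of Hspa1b gave other values. It read 8.70, 7.83 and 5.47 in the tsA58 line, against 6.97, 5.91 and 7.06 in the C57BL/6J line, 9.30, 9.84 and 8.87 in tsA58 tissue and 8.25 and 8.52 in C57BL/6J tissue. Each line lay below its tissue with no overlap, and the 2 lines overlapped. Its change of -2.0 ± 0.68 in the tsA58 line against its tissue was called (adjusted p = 0.0314), but not without tsA58 line replicate 3 (-1.07, adjusted p = 0.0516) or tsA58 tissue replicates 1 (adjusted p = 0.0633) or 2 (adjusted p = 0.0936). The C57BL/6J line differed from its tissue by -1.74 ± 0.76 (adjusted p = 0.0833), a value called without tsA58 line replicate 1 (adjusted p = 0.0458) or replicate 3 (adjusted p = 0.00562), whose spread enters the shared error. The lines differed by 0.69 ± 0.68 (adjusted p = 0.505), and by 1.62 without tsA58 line replicate 3 (adjusted p = 0.0135). Hspa1a and Hspa1b are near-identical copies, and which of them a probe set reads is uncertain.

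Hspa8, which folds proteins in unstressed cells, averaged 12.42 ± 0.36 in the tsA58 line, 12.47 ± 0.24 in the C57BL/6J line, 12.18 ± 0.17 in tsA58 tissue and 12.40 ± 0.05 in C57BL/6J tissue and was called in no comparison. Another Hspa8 probe set gave 2.21 in the tsA58 line against tissue, 1.24 in the C57BL/6J line against tissue and 1.09 between the lines, and pseudogenes of Hspa8 could share probes, so its level is uncertain. Hspa14, a ribosome-associated HSP70, read 10.15, 10.14 and 9.61 in the tsA58 line, above all 3 arrays of the C57BL/6J line (8.98, 9.13 and 8.98) and of tsA58 tissue (8.57, 8.14 and 8.62). It was called against the tissue (1.53 ± 0.20, adjusted p = 0.000139) but fell short of 2-fold between the lines (0.94 ± 0.20, adjusted p = 0.00769; 1.11 and called without tsA58 line replicate 3). Hspa2, an HSP70 best known from the testis, was lower in the tsA58 line (6.85, 6.97 and 6.62) than in tsA58 tissue (9.05, 8.75 and 9.67), a change of -2.34 ± 0.28 (adjusted p = 7.19e-05). In tsA58 tissue it also exceeded C57BL/6J tissue (7.78 and 7.86) by 1.34 ± 0.31 (adjusted p = 0.0143), but not without C57BL/6J tissue replicate 1 (adjusted p = 0.0988) or 2 (adjusted p = 0.0821). The atypical HSP70 Hspa12a was higher in tsA58 than in C57BL/6J tissue by 1.26 ± 0.28 (adjusted p = 0.012), a call that ended without either C57BL/6J tissue array (adjusted p = 0.104 and 0.0591) and in the mean of its probe sets (0.62, adjusted p = 0.0195).

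Among the 4 genes of HSP110 and cytosolic HSP90, Hsph1 and Hsp90aa1 had higher levels in the tsA58 line than in the C57BL/6J line. Hsph1 encodes HSP110, the nucleotide exchange factor of HSP70, and has the 3-unit element printed above. It read 10.69, 9.86 and 9.74 in the tsA58 line, against 7.76, 7.37 and 8.14 in the C57BL/6J line, 9.68, 10.14 and 9.62 in tsA58 tissue and 9.01 and 9.0 in C57BL/6J tissue. The C57BL/6J line was the lowest group and overlapped no other, whereas the tsA58 line overlapped its tissue. Between the lines the change was 2.34 ± 0.28 (adjusted p = 0.000326), which stayed called under every alternative. The C57BL/6J line against its tissue changed by -1.25 ± 0.32 (adjusted p = 0.00816), the difference of differences was 1.53 ± 0.43 (adjusted p = 0.0267), and the tissues differed by 0.81 ± 0.32 (adjusted p = 0.0979). The difference of differences was not called without C57BL/6J line replicates 1 (adjusted p = 0.0593) or 2 (adjusted p = 0.0608), either C57BL/6J tissue array (adjusted p = 0.088 and 0.0867) or tsA58 tissue replicate 3 (adjusted p = 0.058).

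Hsp90aa1, the inducible cytosolic HSP90, read 12.70, 12.37 and 12.24 in the tsA58 line, against 11.28, 11.27 and 11.47 in the C57BL/6J line, 11.29, 11.57 and 10.90 in tsA58 tissue and 10.83 and 10.79 in C57BL/6J tissue. All 3 arrays of the tsA58 line were above the other 8. Its change was 1.09 ± 0.20 against the C57BL/6J line (adjusted p = 0.00384) and 1.18 ± 0.20 against tsA58 tissue (adjusted p = 0.00083). Without tsA58 line replicate 1 the change between the lines was 0.96 and no longer 2-fold (adjusted p = 0.0193), and in the mean of its probe sets it was 0.65 (adjusted p = 0.00779). Its 2 other probe sets gave 1.35 and 0.37 between the lines. Hspa4, of the same family as Hsph1, averaged 10.49 ± 0.49 in the tsA58 line, 10.43 ± 0.22 in the C57BL/6J line, 9.18 ± 0.24 in tsA58 tissue and 9.37 ± 0.01 in C57BL/6J tissue. It was higher by 1.31 ± 0.25 in the tsA58 line against tissue (adjusted p = 0.00151) and by 1.06 ± 0.28 in the C57BL/6J line over tissue (adjusted p = 0.00962). The C57BL/6J call was lost when C57BL/6J line replicate 2 was omitted (0.93, adjusted p = 0.0363) or either tissue array (adjusted p = 0.0533 and 0.0567), and another Hspa4 probe set gave -0.53 there. Between the lines this probe set and another gave 1.31 and 1.71, where the brightest gave 0.06. Hspa4l, the remaining HSP110 gene, averaged 8.27 ± 0.57 in the tsA58 line, 8.31 ± 0.42 in the C57BL/6J line, 8.34 ± 0.17 in tsA58 tissue and 7.21 ± 0.08 in C57BL/6J tissue, the lowest group. It was called higher in the C57BL/6J line than in its tissue (1.10) and in tsA58 than in C57BL/6J tissue (1.13). Neither call held under every alternative.

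**Figure D3:**
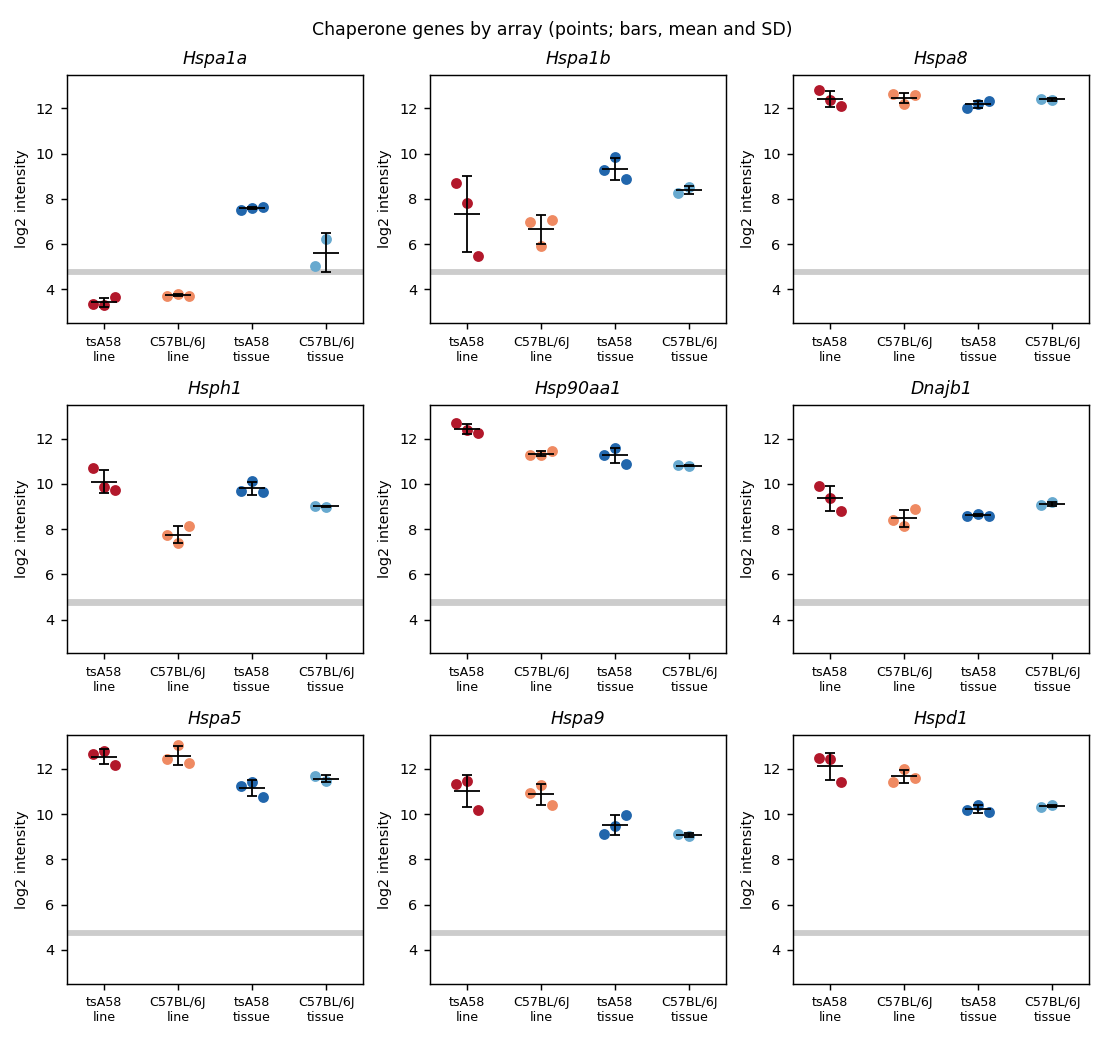
Log2 intensity (y axis) of 9 chaperone genes on each array (points) by group (x axis), with the mean and SD (bars), and a grey band for the array medians of 4.66 to 4.84. Hspa1a lay below the band in both lines, Hsph1 was lowest in the C57BL/6J line, and Hsp90aa1 was highest in the tsA58 line.

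Of the ER chaperones, Hspa5 was higher than tissue in both lines, Dnajb11 in the tsA58 line and Dnajc10 in the C57BL/6J line. Of 8 tested, 2 rose in the tsA58 line relative to tissue and 2 in the C57BL/6J line (25.0% each, against 31.7% and 34.1% of all genes called). Between the lines limma called 0 and between the tissues 0, where 3 and 2 had an unadjusted p below 0.05. Of all genes, 14.2% and 12.8% were called there. Hspa5, the main HSP70 of the ER, read 12.65, 12.79 and 12.18 in the tsA58 line, against 12.42, 13.05 and 12.26 in the C57BL/6J line, 11.26, 11.43 and 10.77 in tsA58 tissue and 11.67 and 11.46 in C57BL/6J tissue. All arrays of the lines were above all of the tissues. The change was 1.39 ± 0.26 in the tsA58 line (adjusted p = 0.00149) and 1.01 ± 0.29 in that of C57BL/6J (adjusted p = 0.0162). The second call was lost on omitting C57BL/6J line replicate 2 (0.77, adjusted p = 0.055) or C57BL/6J tissue replicate 1 (adjusted p = 0.053) or 2 (adjusted p = 0.106). The tissue arrays also carried other cells. The 8 gastric epithelium markers, all lower in both lines than in tissue, summed to 8.60 to 9.20 in the tsA58 line, 8.80 to 9.14 in the C57BL/6J line, 14.38 to 15.93 in tsA58 tissue and 15.30 to 15.34 in C57BL/6J tissue. The pancreatic protease Prss2 read 5.07, 11.20 and 5.38 in tsA58 tissue and 12.27 and 6.62 in C57BL/6J tissue, and it was highest on the arrays with the highest Hspa5 of their groups. Their part in the levels of ER chaperones was not tested. Without tsA58 tissue replicate 2, Hspa5 changed by 1.53 in the tsA58 line (adjusted p = 0.00224). Of the other 2 probe sets of Hspa5, 1 gave 1.56 in the tsA58 line over tissue and 1.07 in that of C57BL/6J, and the other gave -0.19 and -0.44.

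Dnajb11, a J-domain partner of Hspa5, read 9.93, 9.78 and 9.52 in the tsA58 line, against 8.97, 9.22 and 8.95 in the C57BL/6J line, 8.75, 8.77 and 8.24 in tsA58 tissue and 8.30 and 8.40 in C57BL/6J tissue. The tsA58 line was above every other array. It exceeded its tissue by 1.16 ± 0.19 (adjusted p = 0.000724), and by 0.99, under 2-fold, without tsA58 tissue replicate 3. Dnajc10, which carries thioredoxin domains and reduces disulfides, was higher by 1.00 ± 0.17 in the C57BL/6J line (adjusted p = 0.00069) and by 0.78 ± 0.15 in the tsA58 line (adjusted p = 0.0016), the second under 2-fold. The first dropped under 2-fold without C57BL/6J line replicate 1 (0.95) or C57BL/6J tissue replicate 2 (0.90). Hsp90b1 averaged 11.52 ± 0.16 in the tsA58 line, against 10.78 ± 0.29 in tsA58 tissue (0.74 ± 0.19, adjusted p = 0.0087, under 2-fold). Dnajc3, whose promoter has the ER stress response element, was called in no comparison. It averaged 8.61 ± 0.12 in the tsA58 line, 8.54 ± 0.20 in the C57BL/6J line, 8.82 ± 0.37 in tsA58 tissue and 8.77 ± 0.16 in C57BL/6J tissue. Dnajb9, whose transcript is a usual readout of ER stress, averaged 8.77 ± 0.44 in the tsA58 line, 8.96 ± 0.09 in the C57BL/6J line, 9.57 ± 0.20 in tsA58 tissue and 8.84 ± 0.12 in C57BL/6J tissue. It was lower in the tsA58 line than in tsA58 tissue, with a change of -0.80 ± 0.22 (adjusted p = 0.0133, under 2-fold). It was called in no comparison.

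Of 7 mitochondrial chaperone genes, Hspd1, Hspa9 and Dnaja3 were called higher and Dnajc15 lower in each line-tissue comparison. Hspd1, mitochondrial HSP60, read 12.46, 12.44 and 11.41 in the tsA58 line, against 11.40, 11.99 and 11.60 in the C57BL/6J line, 10.16, 10.42 and 10.10 in tsA58 tissue and 10.33 and 10.39 in C57BL/6J tissue. Lines and tissues did not overlap, and the lines overlapped each other. It rose by 1.88 ± 0.28 in the tsA58 line (adjusted p = 0.000335) and by 1.30 ± 0.31 in the C57BL/6J line (adjusted p = 0.00605), both called under every alternative, and the lines differed by 0.44 ± 0.28 (adjusted p = 0.282). Hspe1, its HSP10 lid, averaged 11.81 ± 0.42 in the tsA58 line, against 10.96 ± 0.09 in tsA58 tissue (0.84 ± 0.21, adjusted p = 0.00728, under 2-fold; 1.07 and called without tsA58 line replicate 3), and 11.52 ± 0.12 in the C57BL/6J line and 11.24 ± 0.15 in C57BL/6J tissue.

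Hspa9, the HSP70 of the mitochondrial import motor, read 11.35, 11.47 and 10.19 in the tsA58 line, against 10.94, 11.29 and 10.38 in the C57BL/6J line, 9.10, 9.47 and 9.96 in tsA58 tissue and 9.13 and 9.02 in C57BL/6J tissue. All arrays of the lines were above all of the tissues. It was higher by 1.49 ± 0.36 in the tsA58 line (adjusted p = 0.00635) and by 1.79 ± 0.41 in the C57BL/6J line (adjusted p = 0.00428). Its J-domain partner Dnaja3 was higher by 1.11 ± 0.30 (adjusted p = 0.0108) and 1.5 ± 0.33 (adjusted p = 0.00384) in the same comparisons, the first under 2-fold without tsA58 line replicate 2 (0.79). Dnajc15, a J-domain protein of the inner membrane, moved the other way. It averaged 8.34 ± 0.32 in the tsA58 line, 8.13 ± 0.13 in the C57BL/6J line, 9.80 ± 0.28 in tsA58 tissue and 9.60 ± 0.15 in C57BL/6J tissue, and fell by 1.46 in the tsA58 line (adjusted p = 0.000252) and by 1.47 in the C57BL/6J line (adjusted p = 0.000505).

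Hspb1 and Hspb8, both small heat shock proteins, had the widest differences of line-tissue differences among the members. Of the 6 tested, 4 were lower in the tsA58 line than in tsA58 tissue, with a median of -2.70 over the 6, while 1 was higher and 3 lower in the C57BL/6J line, with a median of -0.38. Hspb1 (HSP27 in human), which binds actin and unfolded proteins, read 9.66, 8.22 and 10.86 in the tsA58 line, against 12.99, 12.10 and 12.66 in the C57BL/6J line, 12.38, 12.30 and 12.12 in tsA58 tissue and 10.56 and 10.84 in C57BL/6J tissue. The tsA58 line was below both the C57BL/6J line and its tissue with no overlap, and the C57BL/6J line was above its tissue. The changes were -2.69 ± 0.52 in the tsA58 line (adjusted p = 0.00171), 1.88 ± 0.58 in the C57BL/6J line (adjusted p = 0.0214) and -3.0 ± 0.52 between the lines (adjusted p = 0.00261). The difference of differences was -4.57 ± 0.78 (adjusted p = 0.00336), the widest among the members, and the tissues differed by 1.56 ± 0.58 (adjusted p = 0.0828). A second Hspb1 probe set gave -2.85, 1.99, -3.17, -4.84 and 1.67 for these 5 values.

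The spread of Hspb1 within the tsA58 line was wide. Without tsA58 line replicate 2 its change was -2.01 against tissue, -2.32 between the lines and -3.89 in the difference, and without replicate 3 it was -3.32, -3.64 and -5.21, all called. The call in the C57BL/6J line ended without C57BL/6J line replicates 1 (adjusted p = 0.0689) or 3 (adjusted p = 0.0521) or either tissue array (adjusted p = 0.115 and 0.0728). The difference between the tissues was called on omitting tsA58 line replicate 2 (adjusted p = 0.0157) or 3 (0.0169).

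Hspb8, which works with Bag3 in clearing misfolded proteins, read 7.85, 7.77 and 7.98 in the tsA58 line, against 9.56, 9.59 and 9.39 in the C57BL/6J line, 10.63, 10.16 and 10.96 in tsA58 tissue and 8.70 and 8.98 in C57BL/6J tissue. No 2 groups overlapped. The tsA58 line was lowest of the 4 and tsA58 tissue highest. It changed by -2.72 ± 0.21 in the tsA58 line (adjusted p = 2.88e-06), 0.68 ± 0.23 in the C57BL/6J line (adjusted p = 0.0352, under 2-fold), -1.65 ± 0.21 between the lines (adjusted p = 0.000431) and 1.75 ± 0.23 between the tissues (adjusted p = 0.00129). The difference of differences was -3.39 ± 0.31 (adjusted p = 0.00018).

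Hspb6 and Hspb7, small heat shock proteins of muscle, were lower in both lines than in tissue. For Hspb2, another of muscle, neither line-tissue change was called (-0.64 in the tsA58 line, adjusted p = 0.0865, and 0.29 in that of C57BL/6J, adjusted p = 0.491). Hspb6 read 7.0, 7.78 and 7.07 in the tsA58 line, against 7.30, 7.19 and 6.91 in the C57BL/6J line, 10.98, 10.24 and 10.41 in tsA58 tissue and 8.87 and 9.04 in C57BL/6J tissue, a change of -3.26 ± 0.26 in the tsA58 line (adjusted p = 3.57e-06) and -1.82 ± 0.29 in that of C57BL/6J (adjusted p = 0.000498). Hspb7 averaged 4.37 ± 0.08 in the tsA58 line, with 4.27 ± 0.13 in the C57BL/6J line, both at background, against 8.02 ± 0.49 in tsA58 tissue and 6.73 ± 0.07 in C57BL/6J tissue, and it fell by 3.65 (adjusted p = 5.65e-07) and fell by 2.46 (adjusted p = 3.05e-05). All 3 genes were higher in tsA58 than in C57BL/6J tissue, Hspb6 by 1.59 ± 0.29 (adjusted p = 0.00471), Hspb2 by 1.34 ± 0.32 (adjusted p = 0.0157) and Hspb7 by 1.29 ± 0.26 (adjusted p = 0.00694). Without C57BL/6J tissue replicate 1 these tissue calls ended (adjusted p = 0.0511, 0.135 and 0.0508), and without replicate 2 those of Hspb2 and Hspb7 did (adjusted p = 0.0592 and 0.0613). The differences of differences, -1.44 ± 0.39 for Hspb6 (adjusted p = 0.0239) and -1.19 ± 0.34 for Hspb7 (adjusted p = 0.0302), were less stable, and that of Hspb7, with both lines at background, mostly repeats the difference between the tissues. That of Hspb6 ended without C57BL/6J line replicates 1 or 2, either C57BL/6J tissue array or tsA58 line replicate 1 (adjusted p = 0.0519 to 0.0942). That of Hspb7 ended without any array of the C57BL/6J line or tissue, tsA58 line replicate 1 or tsA58 tissue replicate 2 (adjusted p = 0.055 to 0.107), and was just under 2-fold without tsA58 tissue replicate 1 (-1.0). Hspb11, an intraflagellar transport protein despite its name, fell by 1.06 in the C57BL/6J line (adjusted p = 0.0188), a call lost on omitting C57BL/6J line replicate 1 (adjusted p = 0.0641) or either tissue array (adjusted p = 0.0972 and 0.0755), and its sign turned with arrays centred on the hybridisation controls (0.17).

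Muscle markers were mostly lower in both lines than in tissue. Hspb6 and Hspb7 were lower there too, while Hspb1 was called higher in the C57BL/6J line than in its tissue. All 8 listed smooth muscle genes were lower in the tsA58 line than in tissue and 6 of 8 in the C57BL/6J line. Between the lines 2 of 8 were lower in the tsA58 line, and between the tissues 3 of 8 were higher in tsA58 tissue, Des (desmin) by 2.47 ± 0.20 (adjusted p = 0.000144). The log2 of their summed level was 10.20 to 12.68 in the tsA58 line, 12.22 to 12.72 in the C57BL/6J line, 16.06 to 16.33 in tsA58 tissue and 15.17 to 15.27 in C57BL/6J tissue. The 4 skeletal muscle markers summed to 6.25 to 6.58, 6.55 to 6.75, 10.17 to 11.43 and 8.95 to 9.07 in the same order. The part of muscle content in the values of Hspb1, Hspb2, Hspb6, Hspb7 and Hspb8 was not tested.

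**Figure D4:**
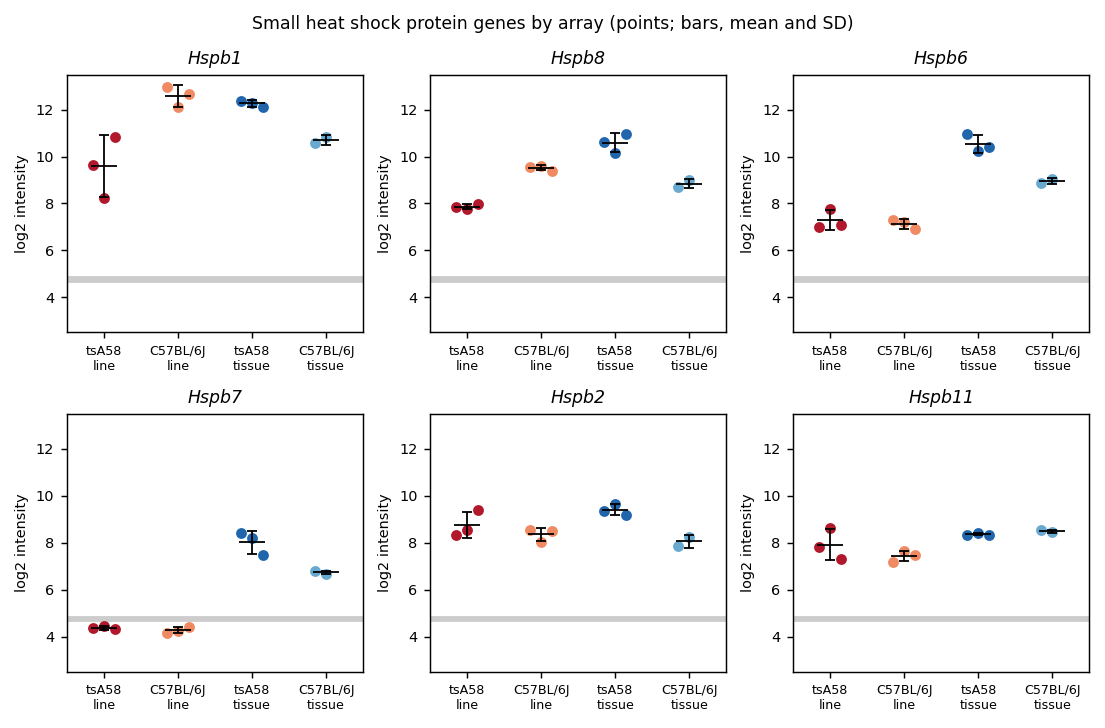
Log2 intensity (y axis) of the 6 tested small heat shock protein genes on each array (points) by group (x axis), with the mean and SD (bars) and a grey band for the array medians of 4.66 to 4.84. Hspb1 and Hspb8 were lower in the tsA58 line than in the C57BL/6J line, and Hspb6 and Hspb7 were higher in both tissues than in both lines.

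Of the Dnaja and Dnajb proteins, 11 tested genes act outside the ER lumen and mitochondria, and 5 of them were called in at least 1 comparison. Of the 11, 3 were lower in the tsA58 line than in tissue (Dnaja4, Dnajb5 and Dnajb14), 1 was higher in the C57BL/6J line (Dnajb2), 1 was lower in the tsA58 than in the C57BL/6J line (Dnaja4), and 2 were higher in tsA58 tissue (Dnaja4 and Dnajb2). In the same order these were 27.3%, 9.09%, 9.09% and 18.2% of the 11, against 31.7%, 34.1%, 14.2% and 12.8% of all genes called. The difference of differences was called for 4 of 11 (36.4% against 20.3% of all genes), higher for Dnajb1 and lower for Dnaja4, Dnajb2 and Dnajb5. Dnaja4 read 5.41, 5.27 and 4.01 in the tsA58 line, against 6.62, 6.57 and 6.53 in the C57BL/6J line, 6.82, 7.21 and 7.46 in tsA58 tissue and 5.97 and 5.71 in C57BL/6J tissue. The tsA58 line was the lowest of the groups, with replicate 3 at background. It changed by -2.26 ± 0.33 against tsA58 tissue (adjusted p = 0.000286), -1.67 ± 0.33 between the lines (adjusted p = 0.00521) and -3.0 ± 0.49 in the difference of differences (adjusted p = 0.00291). With the actin ratio as a covariate the change between the lines was -0.81 (adjusted p = 0.118). Its 1.32 ± 0.37 between the tissues (adjusted p = 0.0298) ended without either C57BL/6J tissue array (adjusted p = 0.111 and 0.175) or tsA58 tissue replicates 2 (adjusted p = 0.0565) or 3 (adjusted p = 0.0846).

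Dnajb1 and Dnaja1 are the common partners of cytosolic HSP70. Dnajb1 (HSP40) read 9.90, 9.38 and 8.79 in the tsA58 line, against 8.41, 8.15 and 8.89 in the C57BL/6J line, 8.60, 8.68 and 8.58 in tsA58 tissue and 9.05 and 9.19 in C57BL/6J tissue. The lines overlapped through replicate 3 of each, and the tsA58 line was above all arrays of its tissue. The line differed from tissue by 0.74 ± 0.28 (adjusted p = 0.0476) and from the C57BL/6J line by 0.88 ± 0.28 (adjusted p = 0.043), both under 2-fold. Without tsA58 line replicate 3 both were called, at 1.02 (adjusted p = 0.00547) and 1.16 (adjusted p = 0.00482), and without C57BL/6J line replicate 3 the second was, at 1.08 (adjusted p = 0.0323). The difference of differences was called at 1.38 ± 0.41 (adjusted p = 0.0363). That call held without tsA58 line replicate 3 or C57BL/6J line replicate 3 and ended without any of the other 9 arrays (adjusted p = 0.0506 to 0.122), and a second probe set gave -0.46. Dnaja1 averaged 10.58 ± 0.38 in the tsA58 line, 10.23 ± 0.27 in the C57BL/6J line, 10.46 ± 0.16 in tsA58 tissue and 10.57 ± 0.08 in C57BL/6J tissue and was called nowhere, and neither was Dnajb6, whose promoter has the 3-unit element.

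Dnajb5, a J-domain protein known from heart muscle, fell by 2.04 in the tsA58 line against tissue (adjusted p = 3.02e-05), with 6.01, 5.38 and 5.97 in the line and 7.56, 8.06 and 7.86 in tissue. Dnajb14, an ER membrane protein whose J domain faces the cytosol, changed by -1.07 ± 0.26 there (adjusted p = 0.00665), which was under 2-fold without tsA58 line replicates 1 (-1.0) or 3 (-0.93) or tsA58 tissue replicate 2 (-0.96), and another probe set gave 0.46. Dnajb2, a J-domain protein studied in neurons, averaged 7.81 ± 0.36 in the tsA58 line, 7.52 ± 0.09 in the C57BL/6J line, 7.68 ± 0.19 in tsA58 tissue and 6.36 ± 0.17 in C57BL/6J tissue. C57BL/6J tissue was the low group: tsA58 tissue was 1.32 ± 0.23 above it (adjusted p = 0.00376), and the C57BL/6J line was 1.15 ± 0.23 above it (adjusted p = 0.00195).

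Among the 19 tested Dnajc genes not grouped with the ER lumen or mitochondria, the widest changes were lower levels in both lines. Dnajc12, a partner of aromatic amino acid hydroxylases, read 4.79, 5.23 and 4.45 in the tsA58 line, against 5.50, 4.54 and 5.66 in the C57BL/6J line, 7.97, 8.32 and 8.75 in tsA58 tissue and 8.78 and 8.58 in C57BL/6J tissue. It fell by 3.52 in the tsA58 line (adjusted p = 1.07e-05) and by 3.45 in the C57BL/6J line (adjusted p = 3.28e-05). Dnajc6 (auxilin), which uncoats clathrin vesicles in neurons, averaged 3.73 ± 0.10 in the tsA58 line, with 3.97 ± 0.17 in the C57BL/6J line, both at background, against 7.0 ± 0.97 in tsA58 tissue and 6.91 ± 0.39 in C57BL/6J tissue. It fell by 3.26 (adjusted p = 7.45e-05) and 2.94 (adjusted p = 0.000323). The 8 enteric neuron markers summed to 7.30 to 7.74 in the tsA58 line, 9.06 to 9.37 in the C57BL/6J line, 12.45 to 13.32 in tsA58 tissue and 12.32 to 12.51 in C57BL/6J tissue, and the part of neurons in these 2 values was not tested.

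Dnajc9, a co-chaperone of histones H3 and H4, went the opposite way in the strains. It read 9.50, 9.36 and 8.32 in the tsA58 line, against 6.74, 6.51 and 7.45 in the C57BL/6J line, 8.23, 7.41 and 8.14 in tsA58 tissue and 8.34 and 8.62 in C57BL/6J tissue. The tsA58 line was above the C57BL/6J line and its own tissue with no overlap, and the C57BL/6J line was below its tissue. Between the lines the change was 2.16 ± 0.36 (adjusted p = 0.00214), called under every alternative, and the difference of differences was 2.71 ± 0.54 (adjusted p = 0.00647). The change was 1.13 ± 0.36 in the tsA58 line (adjusted p = 0.0242), which ended without tsA58 line replicates 1 (0.91, adjusted p = 0.0925) or 2 (0.98, adjusted p = 0.0783) or tsA58 tissue replicate 2 (0.87, adjusted p = 0.0888). In the C57BL/6J line it was -1.58 ± 0.40 (adjusted p = 0.00803), which was lost on omitting C57BL/6J tissue replicate 2 (adjusted p = 0.0648).

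Dnajc21, which in yeast and human serves ribosome assembly, was higher in the tsA58 line (8.10, 8.35 and 7.37) than in the C57BL/6J line (6.21, 6.82 and 6.84) by 1.32 ± 0.28 (adjusted p = 0.00722). Dnajc2, a ribosome-bound J-domain protein, was higher by 1.16 ± 0.32 in the tsA58 line against tissue (adjusted p = 0.0131), but not without tsA58 line replicates 1 or 2 (0.98 in both, adjusted p = 0.0538 and 0.049). Dnajc13, an endosomal J-domain protein, was higher by 1.42 ± 0.18 in the C57BL/6J line (adjusted p = 0.00012), while another of its probe sets gave -0.62. Dnajc28 averaged 5.55 ± 0.43 in the tsA58 line, 6.32 ± 0.31 in the C57BL/6J line, 5.91 ± 0.75 in tsA58 tissue and 4.52 ± 0.17, at background, in C57BL/6J tissue. It was higher by 1.80 ± 0.40 in the C57BL/6J line over tissue (adjusted p = 0.0037).

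Of 6 BAG genes, 2 were called lower in the tsA58 line against tissue, 1 higher in the C57BL/6J line against tissue, 3 higher in tsA58 than in C57BL/6J tissue and 2 lower in the difference of differences. In the same order these were 33.3%, 16.7%, 50.0% and 33.3% of the 6, against 31.7%, 34.1%, 12.8% and 20.3% of all genes called. Between the lines limma called 0 (14.2% of all genes), where 2 had an unadjusted p below 0.05. Bag6, which guards membrane proteins before insertion, read 8.29, 8.47 and 8.56 in the tsA58 line, against 9.17, 8.94 and 9.21 in the C57BL/6J line, 8.62, 8.35 and 8.40 in tsA58 tissue and 7.17 and 7.21 in C57BL/6J tissue. The C57BL/6J line was 1.92 ± 0.18 above its tissue (adjusted p = 1.59e-05) and tsA58 tissue was 1.27 ± 0.18 above C57BL/6J tissue (adjusted p = 0.00163). C57BL/6J tissue was the lowest group, and the tsA58 line overlapped its tissue. Bag3, the partner of Hspb8 and a heat-inducible gene, read 8.85, 8.37 and 8.33 in the tsA58 line, against 8.08, 7.44 and 8.40 in the C57BL/6J line, 9.45, 9.02 and 9.21 in tsA58 tissue and 7.84 and 8.09 in C57BL/6J tissue. It was higher in tsA58 than in C57BL/6J tissue by 1.26 ± 0.29 (adjusted p = 0.0135), a call lost on omitting C57BL/6J tissue replicates 1 (adjusted p = 0.112) or 2 (adjusted p = 0.0621). The lines overlapped and differed by 0.54 ± 0.26 (adjusted p = 0.154). Bag2, an inhibitor of the ubiquitin ligase CHIP, and Bag1, an exchange factor of HSP70, were lower in the tsA58 line than in tissue, with changes of -1.44 ± 0.26 (adjusted p = 0.00105) and -1.25 ± 0.17 (adjusted p = 0.000157).

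**Figure D5:**
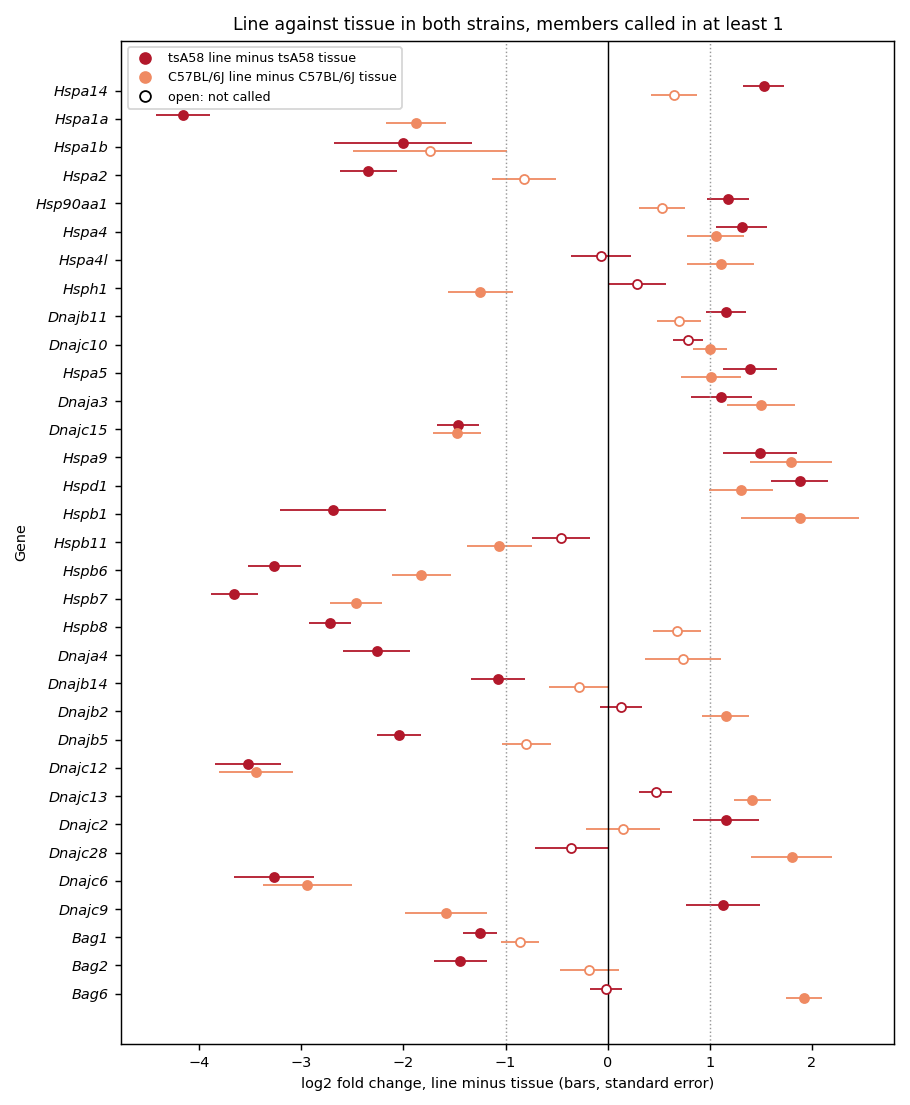
Log2 fold change of line minus tissue (x axis, points, with SE as bars) for the members called in at least 1 strain (y axis), dark red for tsA58 and orange for C57BL/6J, with open points where a change was not called. Hspb1 and Dnajc9 had filled points on opposite sides of 0, while Hspd1, Hspa9, Hspb6, Hspb7, Dnajc6 and Dnajc12 had both points on the same side.

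Between the lines, then, the 7 members called were Hsph1 (2.34), Dnajc9 (2.16), Dnajc21 (1.32) and Hsp90aa1 (1.09) higher in the tsA58 line, grown at 39.5 °C, and Hspb1 (-3.0), Dnaja4 (-1.67) and Hspb8 (-1.65) lower. Centring the arrays on the hybridisation controls shifted the median of all genes between the lines by 1.49, and under it Dnaja4 (-0.18) and Hspb8 (-0.16) were not called. Genes with the 3-unit heat shock element were not all higher: Hsph1 was called, while Hspd1, Hspe1 and Dnajb6 were not. Of the 15 members with a 2-unit element, Hsph1 was called higher and Hspb1, Hspb8 and Dnaja4 lower, and the others were not called or not tested. Of all genes, 8.38% were called higher and 5.77% lower. The part of these elements in the levels was not tested. The alpha-B crystallin gene Cryab, a small heat shock protein outside the symbol rule, read 9.21, 8.77 and 9.90 in the tsA58 line, against 11.17, 10.61 and 10.98 in the C57BL/6J line, 10.50, 10.82 and 10.87 in tsA58 tissue and 10.90 and 10.96 in C57BL/6J tissue. It too was lower in the tsA58 line than in the C57BL/6J line (-1.62 ± 0.27, adjusted p = 0.00221; -0.13 with that centring) and than in tsA58 tissue (-1.44 ± 0.27, adjusted p = 0.00151).

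The regulators and partners of these chaperones were read from lists chosen for the same purpose. Of 5 tested heat shock factors and their regulators, limma called 0 between the lines and 0 in the tsA58 line against tissue, where 4 and 3 had an unadjusted p below 0.05. In the C57BL/6J line against tissue all 5 had positive changes (median 0.62) and an unadjusted p below 0.05, and 1 was called. This was the factor Hsf4 (1.09 ± 0.25, adjusted p = 0.00506), under 2-fold without C57BL/6J line replicate 1 (0.97) or C57BL/6J tissue replicate 1 (0.93, adjusted p = 0.0567) and with cyclic loess (0.96). The factor Hsf2 lay at background in all groups and was not tested, averaging 3.67 ± 0.07 in the tsA58 line, 3.64 ± 0.16 in the C57BL/6J line, 3.26 ± 0.07 in tsA58 tissue and 3.84 ± 0.28 in C57BL/6J tissue. Hsf1, the main factor of the heat response, had no probe set with its symbol alone and was not analysed here. Hspbp1, which inhibits HSP70, was higher in tsA58 than in C57BL/6J tissue by 1.35 ± 0.17 (adjusted p = 0.00112), and Hsbp1, which binds heat shock factor trimers, had a difference of differences of -1.44 ± 0.28 (adjusted p = 0.00628). Of 15 HSP90 co-chaperones, 3 were higher between the lines, 2 higher and 1 lower in the tsA58 line against tissue, 5 higher in the C57BL/6J line and 4 higher between the tissues. Ahsa1, the activator of the HSP90 ATPase, was higher in the tsA58 line by 1.17 ± 0.18 than in the C57BL/6J line (adjusted p = 0.0014). Stip1 (Hop), the adaptor between HSP70 and HSP90, was higher by 1.55 ± 0.16 in the tsA58 line against tissue (adjusted p = 2.79e-05) and by 2.44 ± 0.18 in the C57BL/6J line over tissue (adjusted p = 3.56e-06). Of the 8 tested subunits of the cytosolic chaperonin TRiC, Cct7 alone was called, higher by 1.27 ± 0.18 in the C57BL/6J line over tissue (adjusted p = 0.000211). In the tsA58 line against tissue limma called 0, all 8 changes were positive (median 0.65) and 6 of 8 had an unadjusted p below 0.05. In the C57BL/6J line 3 of 8 had one.

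Mitochondrial proteases and other proteostasis genes were in part higher in the lines, as Hspd1 and Hspa9 were. Of 11 tested, 3 were higher in the tsA58 line against tissue (27.3%, against 31.7% of all genes called). In the C57BL/6J line 6 were higher and 1 lower (63.6% against 34.1%). Between the lines limma called 0 (14.2% of all genes), where 4 had an unadjusted p below 0.05. Lonp1, the matrix protease, was higher by 1.57 ± 0.31 in the tsA58 line (adjusted p = 0.00193) and 2.37 ± 0.35 in that of C57BL/6J (adjusted p = 0.000298), and Htra2 by 1.62 ± 0.19 (adjusted p = 5.98e-05) and 1.96 ± 0.21 (adjusted p = 3.83e-05). Of 24 genes of the ER stress response, 12 were higher in the tsA58 line against tissue and 11 in the C57BL/6J line, and 0 were lower in either, by limma or at an unadjusted p below 0.05 (12.8% and 17.5% of all genes were called higher). Chac1, which degrades glutathione, was higher by 4.63 ± 0.69 in the tsA58 line (adjusted p = 0.000343) and 4.70 ± 0.78 in that of C57BL/6J (adjusted p = 0.000643), which became 4.09 without C57BL/6J line replicate 2 and 5.6 without replicate 3. Ern1, the sensor IRE1, was higher by 2.14 ± 0.23 (adjusted p = 3.9e-05) and 3.82 ± 0.26 (adjusted p = 2.16e-06). Between the lines 3 of 24 were called higher in the tsA58 line (12.5%, against 14.2% of all genes called and 8.38% called higher). At an unadjusted p below 0.05, 5 were higher and 6 lower there. Between the tissues 1 was called lower in tsA58 tissue (4.17%, against 12.8% of all genes called).

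Other stress-linked genes differed between lines and tissue in both directions. Of 8 other stress chaperones, 3 were higher and 2 lower in the tsA58 line against tissue (62.5%, against 31.7% of all genes called). In the C57BL/6J line 2 were higher and 1 lower (37.5% against 34.1%). Hmox1, the heme oxygenase induced by oxidative stress, was higher by 2.63 ± 0.45 in the tsA58 line (adjusted p = 0.000748) and 4.55 ± 0.50 in that of C57BL/6J (adjusted p = 4.31e-05). Immediate early genes, which also respond to tissue handling, had 3 higher and 2 lower of 13 in the tsA58 line against tissue. In the C57BL/6J line 4 were higher and 2 lower, and 3 were higher in tsA58 than in C57BL/6J tissue. These were 38.5%, 46.2% and 23.1% of the 13, against 31.7%, 34.1% and 12.8% of all genes called. The summed log2 level of the immediate early genes was 12.33 to 12.70 in the tsA58 line, 12.95 to 13.07 in the C57BL/6J line, 11.82 to 12.92 in tsA58 tissue and 12.05 to 12.10 in C57BL/6J tissue. Fos and Dusp1 were lower in the tsA58 line than in tissue, with changes of -2.27 ± 0.60 (adjusted p = 0.0102) and -1.77 ± 0.40 (adjusted p = 0.00437), and Fos of -3.10 without tsA58 tissue replicate 2. The part of handling in the levels of Hspa1a and Hspa1b in tissue was not tested.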

How the data were processed

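Transcript levels were measured on 11 Affymetrix arrays. Per the labels' protocols, RNA was amplified first from oligo(dT) and then from random primers, which favours 3′ ends. The authors deposited log2 intensity values, 1 for each probe set, and the submitters' processing notes name RMA as their source. RMA as usually run gives arrays the same distribution of probe intensities, so a shift of most transcripts would be removed. The RMA version was not given in the sources used here, and the values hold no detection calls.

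Of 45101 probe sets 34945 carried 1 gene symbol, 932 several, and 9160 none; 64 are controls. Each gene was read by its single-symbol probe set with the highest mean. Genes above an array's median on at least 2 arrays were tested (13285). limma 3.58.1 in R 4.3.3 fitted 4 group means (7 residual and 3.49 prior degrees of freedom), with 5 comparisons and Benjamini-Hochberg adjustment over all tested genes. The fit was tested on simulated data. Python 3.11.15 made tables, plots and motif searches of RefSeq promoters (GRCm38.p6). Groups were taken from the sample titles. The number of arrays limits the precision.

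The members, lists and alternatives were chosen with earlier results of these data known. Members called in any comparison could be named, with a set of 20 main chaperones named whether called or not, with up to 4 called genes of each list and Hsf1, Hsf2 and Cryab always. Alternatives were the probe set rule, the filter, the normalization, the variance model, an actin covariate, a replicate block, the groups in the fit, the fold minimum and leaving out each array.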

Additional observations from a re-analysis of the deposited data

Results flagged for a closer look

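For 16 members the line-tissue change was called as different in the 2 strains by the interaction term of the limma fit (tsA58 minus C57BL/6J, log2, with Benjamini-Hochberg adjusted p). Among the small heat shock proteins the values were -4.57 for Hspb1 (adjusted p = 0.00336), -3.39 for Hspb8 (adjusted p = 0.00018), -1.44 for Hspb6 (adjusted p = 0.0239) and -1.19 for Hspb7 (adjusted p = 0.0302). Both lines were at background for Hspa1a and Hspb7, so their values mostly repeat the differences between the tissues (1.96 and 1.29). For Hspb1 the changes were of opposite sign, -2.69 in the tsA58 line against tissue and 1.88 in the C57BL/6J line against tissue. Among HSP70, HSP110 and BAG genes the differences were -2.27 for Hspa1a (adjusted p = 0.00358), -1.52 for Hspa2 (adjusted p = 0.0255), 1.53 for Hsph1 (adjusted p = 0.0267), -1.94 for Bag6 (adjusted p = 0.000765) and -1.26 for Bag2 (adjusted p = 0.0389). Among J-domain proteins they were -3.0 for Dnaja4 (adjusted p = 0.00291), 2.71 for Dnajc9 (adjusted p = 0.00647), -2.16 for Dnajc28 (adjusted p = 0.0166), -1.37 for Dnajc16 (adjusted p = 0.009), 1.38 for Dnajb1 (adjusted p = 0.0363), -1.24 for Dnajb5 (adjusted p = 0.0204) and -1.02 for Dnajb2 (adjusted p = 0.0358).

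The calls of Hspb1, Hspb8, Hspa1a, Dnaja4, Dnajc9, Dnajc16 and Bag6 held with each of the 11 arrays left out in turn. The other 9 were each lost without at least 1 array, C57BL/6J tissue replicate 1 and replicate 2 among them. The size of the difference rests in part on tsA58 tissue, which exceeded C57BL/6J tissue by 1.75 for Hspb8 and 1.96 for Hspa1a. Smooth muscle markers had 5 of 8 genes called lower in the same difference, and the part of tissue content in these values was not tested.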

How the results depend on the processing

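Of 83 called results of a member in a comparison, 29 were called under each of the 21 or 22 alternatives run on them and 40 under all but centring on the hybridisation controls. That centring moved the median of all genes by 0.60 (tsA58 line against tissue), 1.23 (C57BL/6J line against tissue), 1.49 (lines), 2.13 (tissues) and -0.64 (difference). It gave 45 members called between the lines, 66 between the tissues and 4 in the difference (57.8%, 91.7% and 4.34% of all genes). It ended 26 of 83 calls, with Hspb11 turning sign in the C57BL/6J line (0.17). Cyclic loess moved those medians by -0.13, -0.27, -0.02, -0.18 and 0.16, and quantile normalization by up to -0.16 (tissues); they ended 10 and 12 calls. Averaging a gene's probe sets ended 19 calls. Of 46 called results with another probe set above the filter, 39 had all such probe sets of the same sign and 7 had not.

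With no minimum fold, 41 of 68 members were called in the tsA58 line against tissue, 33 in the C57BL/6J line against tissue and 14 between the lines. The shares of all genes called were 47.8%, 46.3% and 23.1%. With the actin ratio as a covariate 11 of 68 were called between the lines, and 24.4% of all genes. The cause of these moves was not tested, apart from the fold minimum, which widens the calls by construction. Leaving out 1 array gave 23 to 25 members in the tsA58 line, 15 to 22 in the C57BL/6J line, 6 to 10 between the lines, 5 to 15 between the tissues and 7 to 22 in the difference.

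Same-numbered arrays of different groups did not deviate together (r from -0.16 to 0.25), so the numbers were not taken as pairs. With a replicate block 25, 20, 7, 12 and 14 members were called in the order tsA58 line, C57BL/6J line, lines, tissues and difference. The shares of all genes were 31.6%, 33.7%, 13.9%, 11.1% and 17.1%. The number of arrays limits the precision: C57BL/6J tissue has 2, and 24 or 25 of 83 calls ended without 1 of them.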
